A study of Mus musculus with 6 samples.

Results

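Potassium channel genes were taken to be the genes whose symbol begins with Kcn, without the 4 antisense genes whose symbol carries the ending os, which left 95 of the 32285 genes counted. By symbol they comprised 17 voltage-gated pore subunits (Kcna to Kcnd), 10 electrically silent modifiers (Kcnf, Kcng, Kcns and Kcnv), 5 Kcnq and 8 Kcnh genes, 8 calcium- or sodium-activated channels, 15 inward rectifiers (Kcnj), 14 two-pore channels (Kcnk), 16 auxiliary subunits and 2 others. Of the 95, 94 were annotated as protein coding, and Kcnq1ot1 is a long non-coding RNA. Each gene was located by its Ensembl identifier, 95 of 95, in the GENCODE M21 annotation of GRCm38, the assembly that mm10 names.

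The study dissociated whole autonomic ganglia of P5 mice and counted RNA in single cells. One library each came from the stellate ganglion, the coeliac complex and the lumbar chain, which are sympathetic, and 1 from the sphenopalatine ganglion, which is parasympathetic. The pelvic ganglion, whose place in this division the study examined, gave 2 libraries, pelvic_1 and pelvic_2. All pups, of both sexes, carried a Cre allele and the tdTomato reporter at Rosa, so that no group lacked them. The stellate, the sphenopalatine and pelvic_1 were sequenced in round 1 and the others in round 2, with different reagent versions, so that ganglion and round can be told apart only where the pelvic libraries bridge them. Since the sphenopalatine, the stellate, the coeliac and the lumbar chain had 1 library each, no single one of them was tested against another. The number of pups per library is not given in the sources used here, so p-values measure only the spread between these libraries, which may be technical.

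Potassium channels let potassium leave or enter the cell, set the resting potential and end the action potential. In autonomic neurons the Kcnq channels carry the M current, which acetylcholine closes through muscarinic receptors, and calcium-activated channels shape the pause after a spike. Inward rectifiers of glia take up the potassium that neurons release, and those of vascular cells couple the membrane to the metabolic state.

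After the study's filters 21442 cells remained. A sctransform-corrected mean of neuronal markers (Stmn2, Stmn3, Gap43 and Tubb3) above 3 with a low glial mean selected neurons, 237 to 2724 per library. Clusters of the remaining cells, computed without the Kcn genes, gave 549 to 2764 glia and 27 to 270 mural cells per library, named by their own markers. Summed neurons held 17981802 to 79382522 UMIs per library, glia 5779070 to 10206631 and mural cells 243635 to 1580637. Levels are given as UMIs of a gene per 1000000 UMIs of such a sum (CPM), and since UMIs mark only 3′ ends they were not divided by gene length. The defining noradrenergic marker Th stood at 994, 658 and 452 CPM in neurons of the stellate, the coeliac and the lumbar chain, at 73.9 and 53.2 CPM in those of pelvic_1 and pelvic_2 and at 1.85 CPM in those of the sphenopalatine.

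Summed over the 95 genes, potassium channel RNA was present in the 3 classes at overlapping levels, with different leading genes in each. The sum was 876, 1224 and 1458 CPM in neurons at the lowest, the median and the highest library, 769, 1008 and 1191 CPM in glia and 1104, 1256 and 1501 CPM in mural cells, ranges that overlapped. It includes the 2 genes classed as others, the non-coding Kcnq1ot1 among them. These had 74.3 to 285 CPM in neurons, 24.7 to 125 CPM in glia and 34.7 to 250 CPM in mural cells. With at least 10 CPM in at least 2 libraries, 28 of 95 genes were detected in neurons, 16 in glia and 17 in mural cells, while 27.8%, 28.8% and 29.5% of all genes were. Of these, 16 passed in neurons but in neither other class, 5 in glia alone and 6 in mural cells alone, and 6 passed in all 3. Another 54 passed in none, among them all 10 electrically silent modifiers. No share over all genes was taken for these overlaps between classes, so they are not read as a trait of channel genes. Kcnj1 had 0 UMIs in all cells kept, and 9 further genes had 30 UMIs or fewer over all cells (Kcna10, Kcnmb3, Kcng3, Kcna7, Kcnv2, Kcne1, Kcne2, Kcnj15 and Kcnj4).

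**Figure D1:**
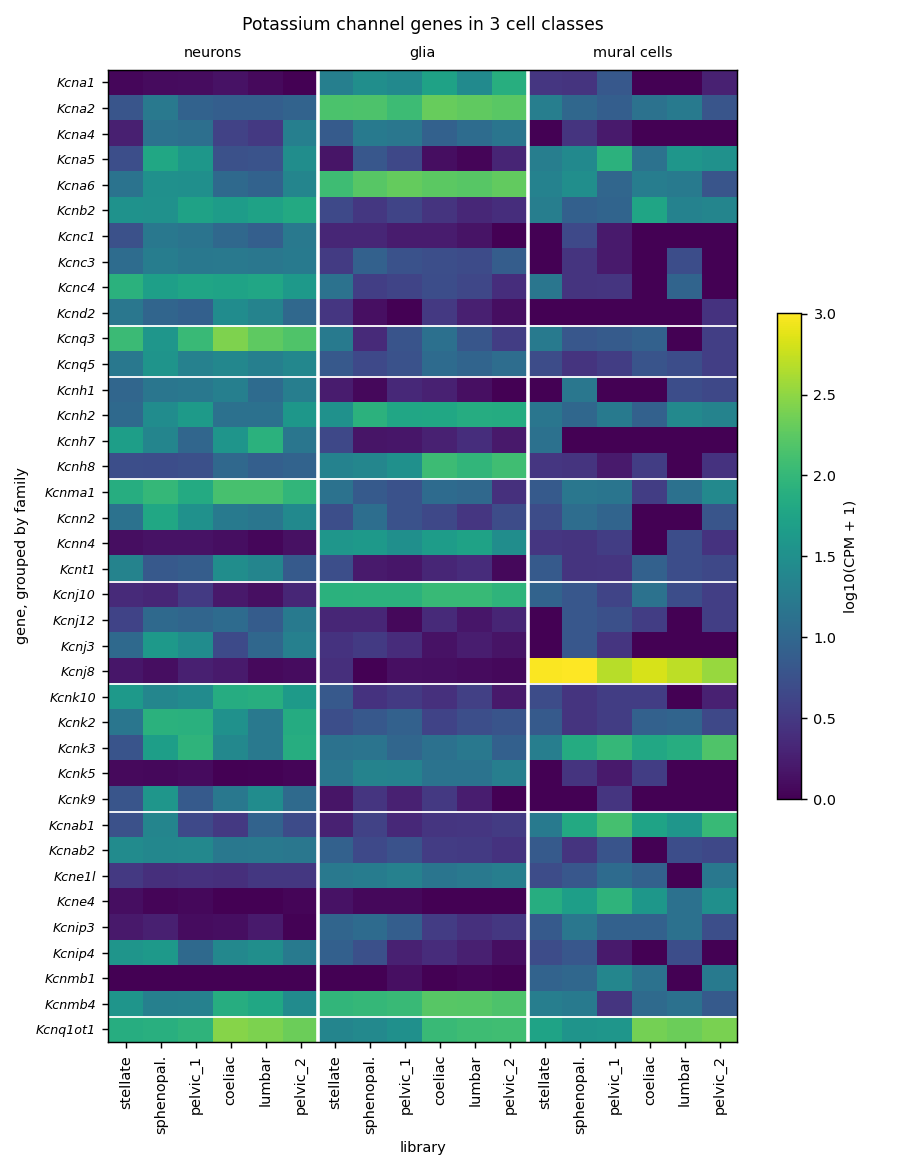
Colour gives log10(CPM + 1) of genes with at least 10 CPM in at least 2 libraries of any class (rows, by family) in the summed neurons, glia and mural cells of each of the 6 libraries (columns). Kcnq3 and Kcnma1 are high in neurons, Kcna2, Kcna6 and Kcnj10 in glia, and Kcnj8 in mural cells of every library.

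The largest share of channel RNA in neurons belonged to voltage-gated pore subunits, with 203, 256 and 296 CPM at the lowest, the median and the highest library, and to the Kcnq family, with 155, 214 and 352 CPM. Kcnq3, a subunit of the M channel (chr15:65986387-66286642, minus strand), had 37.4, 129.9 and 266 CPM, the lowest being the sphenopalatine and the highest the coeliac. Kcnma1, the large-conductance calcium-activated channel, had 68.4, 97.2 and 136 CPM, with the coeliac and the lumbar chain highest. Kcnc4, of the fast delayed rectifiers, had 39.8, 55.5 and 81.4 CPM. In the other families the leading genes were Kcnk2 and Kcnk10 of the stretch-sensitive two-pore channels, Kcnh7 and Kcnh2 of the ether-à-go-go related channels, Kcnj3 and Kcnj12 of the inward rectifiers and Kcnmb4 and Kcnip4 of the auxiliary subunits. Kcnk2 ranged over 14.3 to 81.8 CPM, Kcnk10 over 23.2 to 75.6 CPM, and Kcnj3 over 3.78 to 39.8 CPM. The best represented silent modifiers, Kcnv1 and Kcns2, did not exceed 7.77 and 4.08 CPM.

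The non-coding Kcnq1ot1 was among the most abundant in each class, with 73.8, 77.8 and 89.9 CPM in neurons of the stellate, the sphenopalatine and pelvic_1 and 285, 259.6 and 213 CPM in those of the coeliac, the lumbar chain and pelvic_2. Its level thus separated the rounds without overlap, also between the pelvic libraries. It lies at chr7:143203458-143296549, minus strand, opposite to and within Kcnq1 (chr7:143106362-143427042, plus strand), whose own level did not exceed 0.109 CPM in neurons. Whether strand was used in the counting is not given in the sources used here, but glia of all 6 libraries held 0 UMIs of Kcnq1 beside 3550 of Kcnq1ot1.

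Neurons were compared with glia of the same library, to ask which channels belong to the neurons themselves. Most voltage-gated pore subunits and calcium- or sodium-activated channels were higher in neurons, whereas Kcna1, Kcna2, Kcna6, Kcnj10, Kcnk5 and Kcnn4 were among those higher in glia. Of the 53 members with enough counts to be tested, 34 were higher in neurons (42.9% of all 13751 genes tested) and 14 were higher in glia (30.3%). The median log2 fold change was 2.06 over these members and 0.21 over all genes. By family, 9 of 13 voltage-gated pore subunits, 7 of 8 calcium- or sodium-activated channels, 5 of 8 two-pore channels, 4 of 9 auxiliary subunits, 3 of 5 Kcnh and 3 of 4 Kcnq genes tested were higher in neurons. Lower in neurons were 3, 1, 2, 4, 2 and 0 of them in the same order. The test was edgeR's quasi-likelihood test with the library as a block and Benjamini-Hochberg adjustment over all genes, called at 0.05.

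Kcnh7, an ether-à-go-go related channel, had 8.75 to 81.4 CPM in neurons and 0.484 to 3.53 CPM in glia (log2 fold change 5.18, SE 0.36, adjusted p = 4.1e-09). Kcnq3 had 1.29 to 15.9 CPM in glia, below every neuronal library (log2 fold change 4.80, SE 0.34, adjusted p = 4.59e-09). Similar differences were found for Kcnh1 (4.90 ± 0.56, log2 ± SE), Kcnb2 (4.70 ± 0.39), the two-pore channels Kcnk10 (4.58 ± 0.34) and Kcnk9 (4.22 ± 0.44), Kcnd2, a pore subunit of the transient A-type current (4.36 ± 0.37), Kcnh6 (4.32 ± 0.58) and Kcnc4 (4.18 ± 0.28). Kcnh6 was tested in only 3 of the 6 fits that left out a library, and the call of each gene named before it in this comparison and of Kcnc4 held in all 6. As a measure of neuronal RNA counted in glia, 7 neuronal genes were read there. Over these genes (Prph, Nefl, Nefm, Elavl4, Snap25, Syt1 and Chrna3) the median glial level was 19.9% of the neuronal level in the stellate, 9.60% in the sphenopalatine and 3.03% to 7.16% in the other libraries. Glial Kcnq3 stood at or below this median in 6 of 6 libraries, and the part of neuronal RNA in its glial values, by which it counts among the 16 members detected in glia, was not tested. Kcnk3, an acid-sensitive two-pore channel called higher in neurons (log2 fold change 1.58, SE 0.49, adjusted p = 0.00869), was lower in neurons than in glia in the stellate, with 5.00 against 12.4 CPM.

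Glia showed the reverse for 14 members. For all 14 the glial level exceeded the neuronal one in each of the 6 libraries. The calls were made from these same libraries, so this is no separate check. Kcna6 had 117, 170.3 and 196 CPM in glia at the lowest, the median and the highest library and 7.73, 17.6 and 31.2 CPM in neurons (log2 fold change -3.00, SE 0.31, adjusted p = 3e-07). Kcna2, which with Kcna1 and Kcna6 forms the low-threshold channels of axons and their sheath, had 113, 157 and 203 CPM in glia and 5.19, 7.41 and 15.4 CPM in neurons (log2 fold change -4.00, SE 0.24, adjusted p = 1.18e-09). Kcnj10, the inward rectifier through which satellite glia take up potassium, had 81.5, 87.2 and 105 CPM against 0.318, 1.09 and 2.24 CPM (log2 fold change -6.16, SE 0.36, adjusted p = 8.88e-10). The glial and neuronal ranges of these 3 genes did not overlap. Kcnn4, an intermediate-conductance calcium-activated channel, had 28.9 to 53.5 CPM in glia and 0.138 to 0.409 CPM in neurons (log2 fold change -6.68, SE 0.29, adjusted p = 8.03e-11). The two-pore channel Kcnk5 (-6.76 ± 0.36, log2 ± SE), Kcna1 (-7.11 ± 0.43), Kcnip3 (-3.22 ± 0.40), Kcnk13 (-2.88 ± 0.35), Kcnh8 (-2.87 ± 0.22) and Kcne1l (-2.87 ± 0.24) completed the 10 largest.

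Some glial genes moved with the round. Kcnh8 had 20.6, 22.9 and 31.7 CPM in glia of the stellate, the sphenopalatine and pelvic_1, and 115, 93.0 and 121 CPM in those of the coeliac, the lumbar chain and pelvic_2. The glia of the 2 rounds also fell into different clusters, and the part of the round in this difference was not tested. Kcna5, Kcna1 and Kcna6 lie near each other on chromosome 6 (chr6:126532551-126535412, minus strand, chr6:126640397-126646384, minus strand and chr6:126708329-126740674, minus strand). Their levels differed between classes, Kcna1 being at 0.0271 to 0.389 CPM in neurons, 19.0 to 76.1 CPM in glia and 0 to 5.69 CPM in mural cells, while Kcna5 was at 4.23 to 60.3 CPM, 0.107 to 5.48 CPM and 12.5 to 83.5 CPM. Kcnmb4, the neuronal beta subunit of the Kcnma1 channel, was higher in glia (log2 fold change -1.58, SE 0.24, adjusted p = 2.57e-05), with 93.4 to 165 CPM against 19.5 to 73.1 CPM in neurons, whereas Kcnma1 itself was higher in neurons (log2 fold change 4.06, SE 0.38, adjusted p = 9.82e-08).

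**Figure D2:**
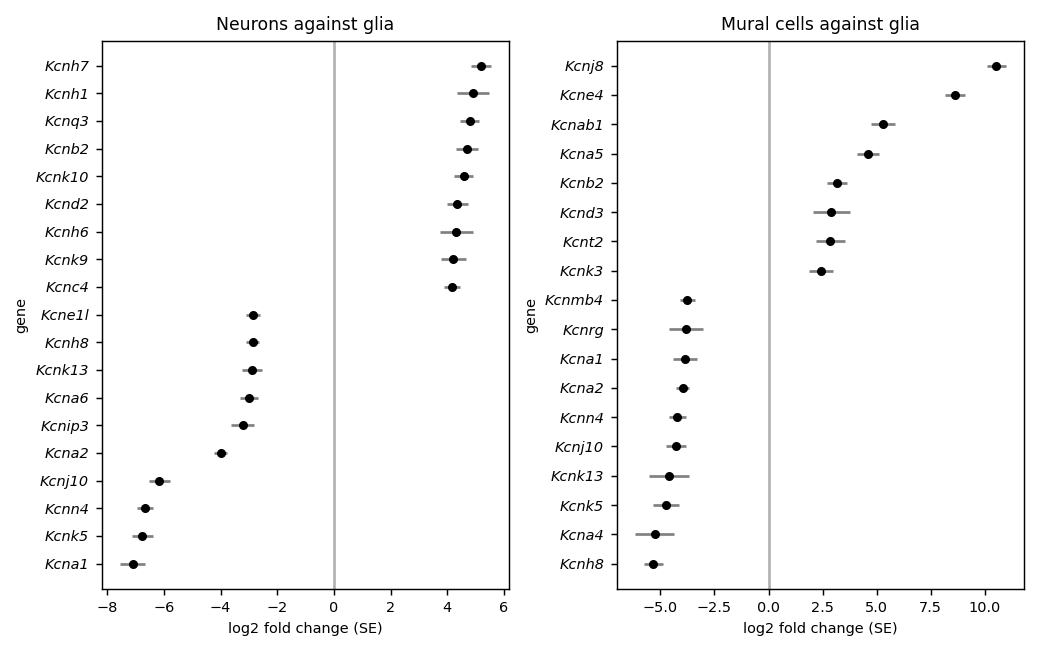
Points give the log2 fold change against glia, with its SE as bars, of members among the 10 with the largest called difference in each direction, in neurons (left) and in mural cells (right), from 6 libraries. Kcna1 has the lowest value for neurons, and Kcnj8 the highest for mural cells.

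Summed mural cells, by their markers pericytes and smooth muscle cells, were dominated by a single channel. Their main smooth-muscle-led cluster, described below, was not. The markers used do not tell smooth muscle of vessels from other smooth muscle. Kcnj8, the pore of the ATP-sensitive potassium channel of vessels (chr6:142564837-142571614, minus strand), had 964, 1011, 480.2, 671, 513 and 349.9 CPM in mural cells of the stellate, the sphenopalatine, pelvic_1, the coeliac, the lumbar chain and pelvic_2. In glia it did not exceed 1.57 CPM and in neurons 0.818 CPM, so that the classes did not overlap (log2 fold change 10.53, SE 0.43, adjusted p = 2.34e-10). Inward rectifiers as a family made up 52.0% of the channel RNA of mural cells on average over libraries, against 9.94% in glia and 2.88% in neurons. The mix of mural clusters in each library was not taken into account in this share. The family had 972 of 1381 CPM in the stellate but 360 of 1163 CPM in pelvic_2, totals that include Kcnq1ot1. Abcc9 encodes the sulfonylurea receptor paired with Kcnj8 in vessels. It had 362, 348, 162, 536, 435 and 303 CPM in the same mural sums (log2 fold change 9.60, SE 0.58, adjusted p = 7.37e-09). Unlike the Kcn genes, Abcc9 was not left out of the clustering and was a leading gene of mural clusters. Its difference is therefore no separate check. The 250 bases before the start site of Kcnj8 in RefSeq (build GRCm38.p6, 5′ to 3′) are shown here because it is the member with the largest difference of any class, and no match to the GC box GGGCGG was found in them on either strand.
Kcnj8 promoter, chr6:142571615-142571864, minus strand: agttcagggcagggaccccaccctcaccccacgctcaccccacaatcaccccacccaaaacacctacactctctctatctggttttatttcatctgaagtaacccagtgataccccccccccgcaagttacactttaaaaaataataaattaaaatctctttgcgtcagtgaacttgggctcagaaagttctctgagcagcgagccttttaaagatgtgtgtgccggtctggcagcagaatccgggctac

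In the same fit, 13 of 53 members were higher in mural cells than in glia (14.7% of all 13751 genes tested) and 17 were lower (20.5%). The median log2 fold change was -0.17 over these members and -0.14 over all genes. The auxiliary subunit Kcne4 had 12.3 to 89.2 CPM in mural cells and at most 0.392 CPM in glia (log2 fold change 8.63, SE 0.45, adjusted p = 1.65e-09). Kcnab1, a beta subunit of shaker-type channels, had 16.2 to 131 CPM against 0.882 to 2.90 CPM in glia (log2 fold change 5.30, SE 0.55, adjusted p = 1.9e-06). Kcna5 (4.61 ± 0.52, log2 ± SE), Kcnb2 (3.17 ± 0.48), Kcnd3 (2.91 ± 0.84), Kcnt2 (2.86 ± 0.68) and Kcnk3 (2.42 ± 0.54) were also among the 10 largest, the call of Kcnd3 being lost without the coeliac (adjusted p = 0.0712) or without pelvic_2 (adjusted p = 0.138). With mural sums of 243635 to 1580637 UMIs, 1 UMI was worth 0.633 to 4.10 CPM, so that low values in the lumbar chain were not read one by one. Pooled over libraries, no mural cluster held more than 8 UMIs of Kcnd3 or 11 of Kcnt2, so that their differences rest on few counts. The 8 UMIs of Kcnd3 lay in the cycling cluster described below. The same 7 neuronal genes stood in mural cells at a median of 1.42% to 14.6% of the neuronal level, highest in the stellate, and the part of neuronal RNA in the values of Kcnb2 was not tested. Among the members lower in mural cells, Kcnh8 (-5.32 ± 0.43), Kcna4 (-5.25 ± 0.90), Kcnk5 (-4.72 ± 0.60), Kcnk13 (-4.60 ± 0.92) and Kcnj10 (-4.28 ± 0.47) had the largest differences.

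Mural cells comprised clusters led by pericyte genes such as Rgs5 and Abcc9 and clusters led by genes of smooth muscle such as Myh11 and Acta2, and their levels are given pooled over libraries. Kcnj8 had 1159 and 704 CPM in the 2 pericyte-led clusters and 58.6 CPM in the main smooth-muscle-led cluster. Of the 255 cells of the first, 93, 64 and 94 came from the stellate, the sphenopalatine and pelvic_1, and of the 122 of the second, 30, 21 and 40 from the coeliac, the lumbar chain and pelvic_2, so that these clusters largely hold different rounds. Kcna5 and Kcnab1 showed the opposite order, with 9.28 and 5.41 against 120.2 CPM and 15.2 and 18.0 against 237 CPM. Kcnmb1, the beta subunit of the Kcnma1 channel in smooth muscle, had 4.22 and 1.80 against 41.6 CPM. A further, cycling cluster with smooth muscle genes, of which 53.16% of the cells resembled simulated doublets, lay between for Kcnj8 (431 CPM). No test was made between these clusters, and the main smooth-muscle-led cluster held 162 cells, of which 111 came from pelvic_1 and 26 from pelvic_2.

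Pelvic neurons were then compared with neurons of the 3 sympathetic ganglia, the division the study examined. Summed over their types, pelvic neurons had more RNA of the shaker-type channels Kcna4, Kcna5 and Kcna6, of Kcnh2 and of the two-pore channels Kcnk2 and Kcnk3. They had less of the auxiliary subunits Kcnmb2, Kcnmb4, Kcnip1 and Kcnip4 and of the sodium-activated channel Kcnt1. Several of these genes differed between the pelvic types described below. With sequencing round in the model, 13 of 69 members tested were higher in pelvic neurons (10.3% of all 15715 genes tested) and 15 were lower (8.23%). The median log2 fold change was -0.05 over the members and -0.02 over all genes. All 4 Kcnq genes tested were without a call, and of 11 auxiliary subunits tested 0 were higher and 4 were lower.

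Kcna5 (chr6:126532551-126535412, minus strand) had 37.7 and 28.3 CPM in pelvic_1 and pelvic_2, and 4.23, 4.50 and 4.81 CPM in the stellate, the coeliac and the lumbar chain (log2 fold change 2.83, SE 0.16, adjusted p = 0.000119), and the sphenopalatine, which was not part of the fit, had 60.3 CPM. Kcnh2, the channel of the rapid delayed rectifier, had 42.4 and 37.6 CPM in pelvic_1 and pelvic_2, and 9.64, 12.3 and 12.2 CPM in the stellate, the coeliac and the lumbar chain (log2 fold change 1.84, SE 0.15, adjusted p = 0.000379), with 28.3 CPM in the sphenopalatine. Kcna4 had 11.6 and 19.0 CPM in pelvic_1 and pelvic_2, and 0.844, 2.95 and 2.14 CPM in the stellate, the coeliac and the lumbar chain (log2 fold change 3.28, SE 0.23, adjusted p = 0.000219), with 12.5 CPM in the sphenopalatine. For these 3 genes both pelvic libraries and the sphenopalatine lay above all 3 sympathetic libraries. They were picked from the called members, so for the pelvic libraries this is no separate check. Glial Kcnh2 stood at 140% to 582% of the neuronal level of the same library, and glial Kcna4 at 71.7% to 755%. The part of glial RNA in the neuronal values of Kcnh2, Kcna4, Kcna6 and Kcnmb4 was not tested, here or between transmitters and pelvic types. The 250 bases before their RefSeq start sites (build GRCm38.p6, 5′ to 3′) are given because all 3 were higher in pelvic than in sympathetic neurons, with matches to the GC box GGGCGG or its reverse complement in capitals. Kcna5 held 0 such matches, Kcnh2 3 and Kcna4 1, with GC contents of 53.2%, 73.6% and 65.2%. The Kcnh2 window lies inside the annotated gene (chr5:24319589-24351604, minus strand), before an internal start site and not before its outermost one. A match was found in 32.7% of all 32851 promoter windows of this length and in 44.2% of the 95 windows of 70 potassium channel genes, whose median GC content was 58.4% against 52.4% over all windows.
Kcna5 promoter, chr6:126535556-126535805, minus strand: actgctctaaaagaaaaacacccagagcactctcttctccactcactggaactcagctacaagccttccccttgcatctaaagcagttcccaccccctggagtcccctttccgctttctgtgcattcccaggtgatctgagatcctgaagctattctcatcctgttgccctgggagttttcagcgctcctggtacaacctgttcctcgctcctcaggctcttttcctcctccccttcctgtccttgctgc
Kcnh2 promoter, chr5:24329592-24329841, minus strand: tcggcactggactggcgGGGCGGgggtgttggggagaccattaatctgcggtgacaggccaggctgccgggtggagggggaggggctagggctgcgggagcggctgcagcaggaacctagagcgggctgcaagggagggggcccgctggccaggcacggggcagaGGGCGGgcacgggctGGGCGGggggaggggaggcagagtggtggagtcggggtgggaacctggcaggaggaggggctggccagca
Kcna4 promoter, chr2:107290339-107290588, plus strand: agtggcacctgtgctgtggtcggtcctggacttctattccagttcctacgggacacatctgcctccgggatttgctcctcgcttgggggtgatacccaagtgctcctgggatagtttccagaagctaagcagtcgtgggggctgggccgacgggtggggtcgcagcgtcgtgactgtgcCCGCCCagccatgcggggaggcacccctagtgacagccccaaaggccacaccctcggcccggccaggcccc

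Kcnk3 had 88.0 and 72.6 CPM in pelvic_1 and pelvic_2, and 5.00, 24.4 and 15.6 CPM in the stellate, the coeliac and the lumbar chain (log2 fold change 2.87, SE 0.47, adjusted p = 0.00631). Kcnk2 had 78.9 and 69.8 CPM in pelvic_1 and pelvic_2, and 14.3, 32.0 and 15.3 CPM in the stellate, the coeliac and the lumbar chain (log2 fold change 1.97, SE 0.31, adjusted p = 0.00521). In the sphenopalatine they had 46.9 and 81.8 CPM, so that its neurons again lay above the sympathetic libraries. The inward rectifiers Kcnj3 and Kcnj6, which form channels opened by G proteins, were both called higher in pelvic neurons (1.54 ± 0.32 and 5.04 ± 0.52, log2 ± SE), Kcnj6 at only 1.36 and 3.41 CPM. Kcnv1 (2.28 ± 0.25), Kcna6 (1.29 ± 0.15) and Kcnj12 (1.19 ± 0.22) completed the 10 largest. The calls of Kcnk2, Kcnj3 and Kcnj12 were lost without the stellate (adjusted p = 0.118, 0.169 and 0.142), without pelvic_1 and without pelvic_2, and those of Kcnj6 and Kcnv1 without pelvic_2 (adjusted p = 0.088 and 0.0778), while their directions held.

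Among the members lower in pelvic neurons, Kcnmb2, a beta subunit that inactivates the Kcnma1 channel, had 0.0545 and 0.0542 CPM in pelvic_1 and pelvic_2 against 3.74, 5.51 and 10.2 CPM in the stellate, the coeliac and the lumbar chain (log2 fold change -6.67, SE 0.54, adjusted p = 0.000379). The sphenopalatine had 0 UMIs of it among 76019261, and 3 UMIs would have been 0.0395 CPM. Kcnip1, which binds the A-type channels, had 0.872 and 0.298 CPM in pelvic_1 and pelvic_2, and 6.87, 7.67 and 7.95 CPM in the stellate, the coeliac and the lumbar chain (log2 fold change -3.78, SE 0.38, adjusted p = 0.000889), but 14.2 CPM in the sphenopalatine, above the sympathetic libraries. Kcnt1 had 6.62 and 6.09 CPM in pelvic_1 and pelvic_2, and 21.3, 28.8 and 22.3 CPM in the stellate, the coeliac and the lumbar chain (log2 fold change -1.90, SE 0.17, adjusted p = 0.000619), and 5.91 CPM in the sphenopalatine. Pelvic and sympathetic libraries did not overlap for any of these 3 genes, which were picked from the called members, so this is no separate check. Kcnh7 (-2.23 ± 0.36, log2 ± SE), Kcng4 (-3.75 ± 0.81), Kcnk16 (-3.07 ± 0.73), Kcnh4 (-1.91 ± 0.37), Kcnc2 (-1.91 ± 0.29), Kcnh3 (-1.66 ± 0.46) and Kcnd2 (-1.23 ± 0.18) were also called lower, of which Kcnh4, Kcng4, Kcnk16 and Kcnh3 had at most 2.00, 0.668, 0.498 and 0.501 CPM in a sympathetic library. Each of the 5 libraries was left out in turn. Without the stellate, pelvic_1 or pelvic_2 the calls fell both among the members and among all genes. The calls of Kcna4, Kcna5, Kcna6, Kcnh2, Kcnk3, Kcnmb2, Kcnip1 and Kcnt1 held in all 5 such fits, each with 1 residual degree of freedom, while those of Kcnh7, Kcnh4, Kcnc2, Kcnh3 and Kcnd2 were lost without the stellate (adjusted p = 0.142 for Kcnh7) and without pelvic_2. Without pelvic_1 or pelvic_2 the pelvic side had 1 library, assumed to vary like the sympathetic ones. Without the stellate, pelvic_1 was alone in round 1, and the round term absorbed it. That fit thus rested on pelvic_2 alone and nearly repeated the fit without pelvic_1 (Kcnh7 log2 fold change -2.0433 and -2.0383). The 5 fits are therefore not 5 separate checks. Kcng4 and Kcnk16 were called in 1 of the 5 fits and could be tested in 3. Without a term for the round, 6 of 69 members were called lower (426 of 15715 genes), and without the coeliac 26 of 73 (1726 of 16108 genes).

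**Figure D3:**
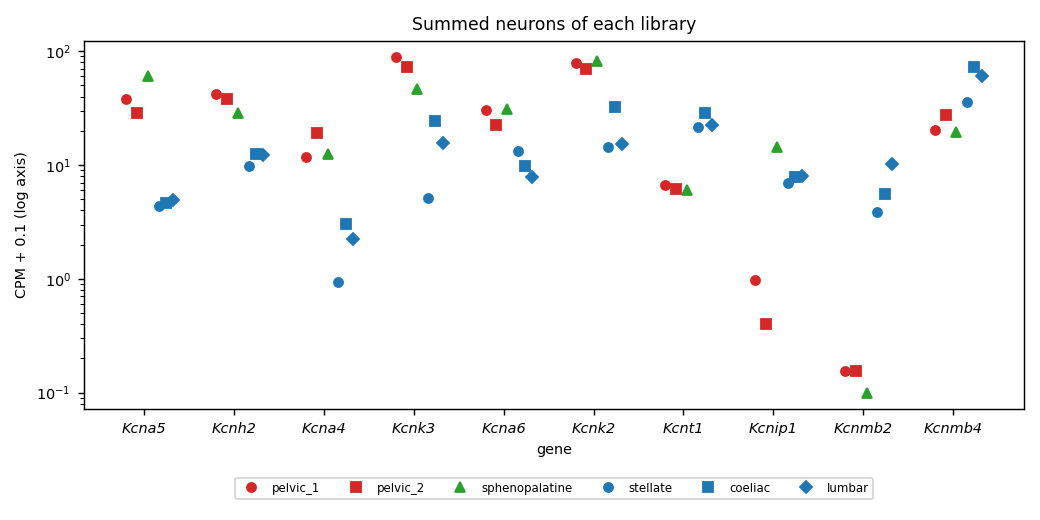
Each symbol is the level of a gene in the summed neurons of 1 library, as CPM + 0.1 on a log axis, for 6 members called higher and 4 called lower in pelvic (red) than in sympathetic (blue) neurons, with the sphenopalatine (green) beside them. Red and blue symbols do not overlap for any of the 10 genes, which were picked from the called members. No share over all genes was taken for this, so it is no separate check. Not all called members are without overlap. Kcnj12, not shown, had 8.61 to 16.2 CPM in pelvic and 3.07 to 10.2 CPM in sympathetic libraries.

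Because most of the clustered neurons of the pelvic libraries were cholinergic and most of those of the stellate and the lumbar chain noradrenergic, both kinds were also compared within a library, a comparison chosen after the levels were seen and not tested. Clusters of neurons gave 26 cholinergic and 2481 noradrenergic neurons in the stellate, 53 and 681 in the lumbar chain, 662 and 131 in pelvic_1 and 332 and 33 in pelvic_2. In all 4 libraries, 5 of 68 members with at least 30 UMIs were 3-fold or more higher in cholinergic neurons (1.10% of all 15485 genes) and 5 were listed as 3-fold or more lower (1.10%). Kcna5 had 41.3 against 3.48 CPM in the stellate, 31.2 against 1.93 CPM in the lumbar chain, 41.3 against 9.65 CPM in pelvic_1 and 31.2 against 3.18 CPM in pelvic_2. Kcnh2 had 41.3 against 9.10 CPM in the stellate, 44.4 against 8.59 CPM in the lumbar chain, 47.2 against 13.1 CPM in pelvic_1 and 40.7 against 10.9 CPM in pelvic_2. Kcna4 had 4.49 against 0.748 CPM in the stellate, 12.4 against 1.60 CPM in the lumbar chain, 13.3 against 2.12 CPM in pelvic_1 and 20.6 against 4.77 CPM in pelvic_2. The cholinergic level was thus the higher one in each library for each of them, and the exact 95% Poisson intervals of the sums, which cover counting error only, did not overlap, although Kcna4 in the stellate rested on 5 UMIs. The other 2 were Kcnab1 and the mechanosensitive Kcnk4. Of the 26 cholinergic neurons of the stellate, 65.4% had more than 50% simulated doublets among their 30 neighbours, which was not so in the lumbar chain (13.2%). Without such cells the stellate kept 9 cholinergic neurons, under the minimum of 10, so that its values could not be given again.

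Kcnk3 differed less between the transmitters in the pelvic libraries. It had 70.9 against 3.97 CPM in the stellate, 72.7 against 15.0 CPM in the lumbar chain, 89.1 against 75.9 CPM in pelvic_1 and 72.0 against 77.3 CPM in pelvic_2, so that cholinergic neurons were higher in the sympathetic libraries, while in pelvic_1 the difference was small, with intervals that did not overlap, and in pelvic_2 the intervals overlapped. The 5 listed as lower in cholinergic neurons were Kcnmb2, Kcnj9, Kcnk16, Kcnh3 and Kcnip2, each with 0 UMIs in those of the stellate and the lumbar chain. In the stellate 0 UMIs allow up to 3.31 CPM (exact 95% limit), and apart from Kcnmb2 their noradrenergic levels there were 0.332 to 0.720 CPM, so that a lower level was not shown there for these 4. Kcnmb2 had 0 UMIs in cholinergic neurons of all 4 libraries. In noradrenergic neurons it had 4.09 and 14.4 CPM in the stellate and the lumbar chain, and 0.386 and 0.530 CPM in pelvic_1 and pelvic_2, the last 2 on 2 UMIs each.

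**Figure D4:**
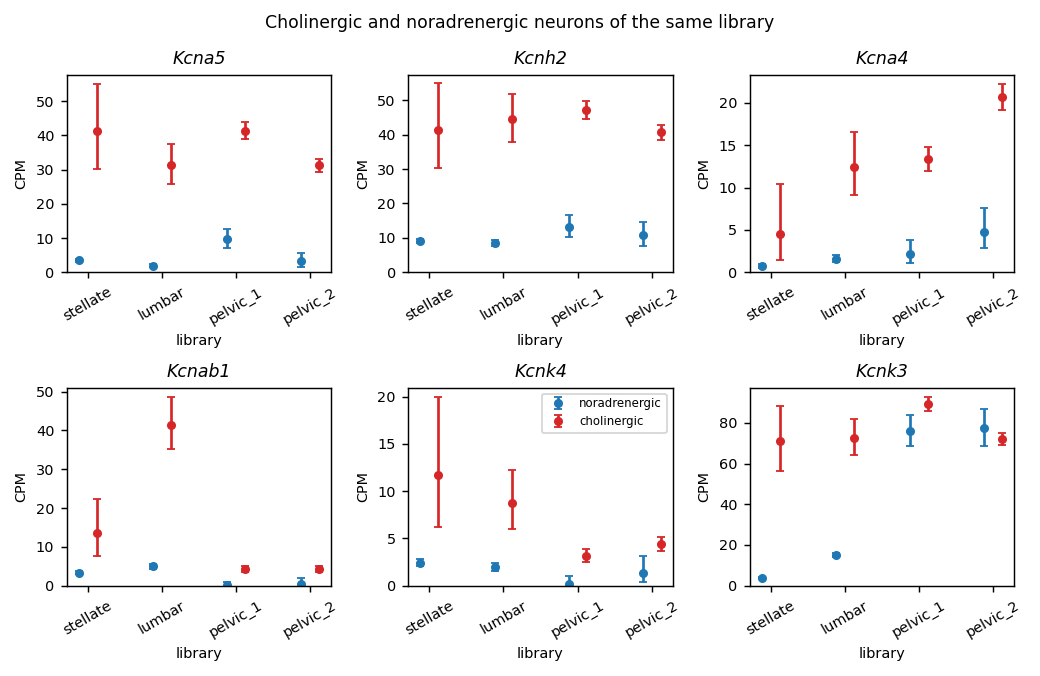
Points give the level (CPM) of 6 members in the summed cholinergic (red) and noradrenergic (blue) neurons of 4 libraries, with exact 95% Poisson intervals as bars. Kcna5, Kcnh2, Kcna4, Kcnab1 and Kcnk4 are higher in cholinergic neurons of each library, and Kcnk3 in those of the stellate, the lumbar chain and pelvic_1.

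The parasympathetic sphenopalatine was set beside the round 1 libraries of the stellate and the pelvic ganglion, without a test. Of 69 members with at least 30 UMIs in any of the 3, 5 had at least 3 times the CPM of both others (2.38% of all 15210 genes) and 2 were listed as lower than both by the same factor (2.36%). Kcnk9, an acid-sensitive two-pore channel, had 36.9 CPM (95% interval 35.5 to 38.2, 2802 UMIs) in the sphenopalatine, 5.13 CPM (95% interval 4.64 to 5.65, 407 UMIs) in the stellate and 6.08 CPM (95% interval 5.31 to 6.93, 223 UMIs) in pelvic_1. Kcnab1 had 22.6 CPM (95% interval 21.5 to 23.7, 1715 UMIs), 4.59 CPM (95% interval 4.13 to 5.08, 364 UMIs) and 3.63 CPM (95% interval 3.04 to 4.30, 133 UMIs) in the same order. Kcnj11, the pore of the ATP-sensitive channel of neurons and beta cells, had 6.33 CPM (95% interval 5.77 to 6.92, 481 UMIs), 0.718 CPM (95% interval 0.544 to 0.930, 57 UMIs) and 1.50 CPM (95% interval 1.13 to 1.95, 55 UMIs). The sphenopalatine intervals lay above both others for each of these 3 genes. Kcnk4 had 9.08, 2.63 and 2.62 CPM, and the silent Kcng1 49, 2 and 0 UMIs. The 2 members listed past the fold in the other direction, Kcnmb2 and Kcng4, had 0 and 1 UMIs against 2 and 3 in pelvic_1, too few to show a fold of 3 against it.

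In round 2 the coeliac was set beside the lumbar chain in the same way. Of 62 members read, 0 had at least 3 times the CPM in the coeliac (0.803% of all 14194 genes) and 4 were lower by the same factor (1.59%), namely Kcnab1, Kcns2, Kcnh5 and the two-pore channel Kcnk18. Kcnab1 had 2.11 CPM (95% interval 1.50 to 2.90, 38 UMIs) in the coeliac, 8.14 CPM (95% interval 7.50 to 8.82, 589 UMIs) in the lumbar chain and 3.90 CPM (95% interval 3.29 to 4.59, 144 UMIs) in pelvic_2. In the lumbar chain the level of Kcnab1 was 41.5 CPM in cholinergic and 5.00 CPM in noradrenergic neurons, and no cholinergic cluster was found in the coeliac. The part of cholinergic neurons in the difference between these ganglia was not tested. Kcns2, a silent modifier, had 1.28 CPM (95% interval 0.811 to 1.92, 23 UMIs) and 4.08 CPM (95% interval 3.62 to 4.57, 295 UMIs). The other 2 rested on 7 and 1 UMIs in the coeliac.

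The pelvic neurons comprised 4 named types in both libraries, P1-like, P2-like, P3-like and P4-like, after the markers the study lists, with P3-like being the noradrenergic one. They counted 352, 253, 131 and 57 neurons in pelvic_1 and 195, 96, 33 and 41 in pelvic_2. Each type was compared on the log scale with the mean of the other 3, with the library as a block. A very low level in any of the other types can therefore set the size of a difference. In these fits 51 members were tested. Each call had the same sign in both libraries, but the calls were made from these 2 libraries, so this is no separate check. With each neuron thinned to 4000 UMIs, 22 members could be tested and the calls fell to 1 to 4 higher and 0 to 3 lower per type. Of 7105 genes tested, 275 to 413 were then higher and 111 to 330 lower per type.

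P1-like neurons had the highest levels of Kcnip4, a subunit of A-type channels, and Kcnk9 among the types. Kcnip4 was also called higher in P4-like neurons, and Kcnk9 in P3-like neurons. In them 13 members were higher (7.98% of all 13264 genes tested) and 9 lower (5.55%). Kcnip4 had 21.0 and 27.5 CPM in P1-like neurons of pelvic_1 and pelvic_2, against 0.181 and 0.112 in P2-like, 0.579 and 1.06 in P3-like and 15.8 and 9.43 in P4-like neurons (log2 fold change 4.43, SE 0.24, adjusted p = 7.16e-09). Kcnk9 had 11.6 and 16.6, 0.725 and 0.112, 6.18 and 7.15 and 0 and 0.242 CPM in the same order (log2 fold change 4.18, SE 0.31, adjusted p = 2.01e-07). Both P1-like libraries lay above all others for these genes. Kcna4 (1.43 ± 0.16, log2 ± SE), Kcnk4 (1.12 ± 0.29), Kcnab1 (1.11 ± 0.29), Kcnn3 (1.01 ± 0.26), Kcnq5 (1.00 ± 0.12), Kcnc1 (0.99 ± 0.13) and Kcnk3 (0.74 ± 0.13) were also higher. Kcnj6 was called higher too, but P3-like neurons held no UMIs of it, so this contrast has no defined size. On log2(CPM + 1), Kcnj6 in P1-like neurons lay 0.135 and 0.986 above the mean of the other types in pelvic_1 and pelvic_2. The 9 lower members differed by less than 1 on the log2 scale, from Kcnk2 (-0.80 ± 0.12) to Kcnq1ot1 (-0.37 ± 0.10), and included Kcnq3 (-0.70 ± 0.10).

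P2-like neurons had more Kcnd3, a pore subunit of the A-type current, and less Kcnd2 and Kcnip4. In them 13 members were higher (11.5%) and 10 lower (9.99%). Kcnd3 had 14.4 and 11.8 CPM in P2-like neurons of pelvic_1 and pelvic_2, against 2.68 and 1.69 in P1-like, 0.772 and 0 in P3-like and 0.428 and 0.725 in P4-like neurons (log2 fold change 3.97, SE 0.29, adjusted p = 1.33e-07). Kcnd2 had 1.36 and 1.90, against 9.76 and 10.1, 15.2 and 22.5 and 11.1 and 8.70 CPM (log2 fold change -2.85, SE 0.24, adjusted p = 6.61e-07). Kcnip4, whose product binds both, was also lower (log2 fold change -5.17, SE 0.62, adjusted p = 2.08e-05). Kcnh1 (1.59 ± 0.16, log2 ± SE), Kcnj12 (1.44 ± 0.16), Kcnk3 (1.22 ± 0.13), Kcna5 (1.07 ± 0.15), Kcnk1 (1.05 ± 0.23), Kcnn2 (0.62 ± 0.11), Kcna6 (0.54 ± 0.12) and Kcnh2 (0.51 ± 0.11) were higher, and Kcnv1 (-2.62 ± 0.27) and Kcnn3 (-1.72 ± 0.36) lower. Kcnj11 was called higher too, but P3-like neurons held no UMIs of it, so this contrast has no defined size. On log2(CPM + 1), Kcnj11 in P2-like neurons lay 0.714 and 0.528 above the mean of the other types in pelvic_1 and pelvic_2.

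P3-like neurons had more RNA of the M channel subunit Kcnq3 and of calcium- and sodium-activated channels, and less of Kcna5 and Kcnh2. In them 16 members were higher (12.6%) and 14 lower (12.4%), and 4 of the 7 calcium- or sodium-activated channels tested were higher and 0 lower. Kcnma1 had 112 and 238 CPM in P3-like neurons of pelvic_1 and pelvic_2, against 57.9 and 84.4 in P1-like, 63.4 and 69.9 in P2-like and 60.4 and 67.2 in P4-like neurons (log2 fold change 1.30, SE 0.13, adjusted p = 2.56e-06). Its subunit Kcnmb4 had 40.7 and 63.8, 13.0 and 23.3, 17.8 and 23.7 and 16.7 and 22.7 CPM in the same order (log2 fold change 1.40, SE 0.12, adjusted p = 4.57e-07). Within each library the P3-like level was the highest for both genes. For Kcnmb4 the P3-like levels lay within the 35.7 to 73.1 CPM of the sympathetic libraries, and those of the other types below it. Kcnq3 (0.97 ± 0.10, log2 ± SE) and Kcnt1 (1.67 ± 0.18) were also higher in P3-like neurons, as were Kcnc2 (3.10 ± 0.65), Kcnj9 (3.05 ± 0.48), Kcnk9 (2.68 ± 0.44), Kcnt2 (1.97 ± 0.63), Kcnd2 (1.77 ± 0.19), Kcnn1 (1.39 ± 0.24) and Kcnv1 (1.29 ± 0.23). Over all neurons of pelvic_1 and pelvic_2, Kcnc2 had only 26 and 19 UMIs, Kcnj9 36 and 44, and Kcnt2 48 and 46. The sizes of their differences thus rest on few counts. For Kcnk9 the P1-like levels given above were higher still. Kcna5 had 9.65 and 3.18 CPM in P3-like neurons and between 27.1 and 49.2 CPM in the other types (log2 fold change -2.55, SE 0.21, adjusted p = 2.83e-07). Kcnh2 was lower as well (log2 fold change -2.06, SE 0.14, adjusted p = 3.72e-08), as were Kcnab1 (-3.63 ± 0.53, log2 ± SE), Kcnd3 (-2.58 ± 0.67), Kcnk4 (-2.45 ± 0.50), Kcnip4 (-2.20 ± 0.65), Kcna4 (-2.21 ± 0.26) and the G protein-gated Kcnj3 (-0.94 ± 0.16). Kcnj6, Kcnj11 and Kcnh5, also called lower, had 0 UMIs in P3-like neurons of both libraries, so that their fitted differences have no defined size.

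P4-like neurons had the highest level of the stretch-sensitive Kcnk2 and the lowest of Kcnk3 among the 4 types. In them 15 members were higher (14.3%) and 16 lower (10.2%). Kcnk2 had 208 and 160.5 CPM in P4-like neurons of pelvic_1 and pelvic_2, against 61.7 and 51.5 in P1-like, 72.3 and 55.5 in P2-like and 80.1 and 102 in P3-like neurons (log2 fold change 1.33, SE 0.11, adjusted p = 5.47e-07). Kcnk3 had 9.85 and 18.6, against 83.4 and 74.9, 114 and 90.4 and 75.9 and 77.3 CPM (log2 fold change -2.56, SE 0.19, adjusted p = 1.38e-07). Neither gene overlapped between P4-like and the other types. Kcnab1 (3.62 ± 0.28, log2 ± SE), Kcnip4 (2.94 ± 0.34), Kcnn3 (1.81 ± 0.31), Kcnh7 (1.78 ± 0.16), Kcna2 (1.56 ± 0.21), Kcnk4 (1.54 ± 0.37) and the glial Kcnj10 (2.23 ± 0.48) were higher. Kcnh5 and Kcnj6 were called higher too, but P3-like neurons held no UMIs of either, so these contrasts have no defined size. On log2(CPM + 1), Kcnh5 lay 1.64 and 3.19 above the mean of the other types in pelvic_1 and pelvic_2. For Kcnj6 these values were 1.56 and 1.25. Kcnj10 had 5.14 and 3.63 CPM in P4-like neurons, where it was 84.6 and 88.9 CPM in glia of the same libraries, and the part of glial RNA in this value was not tested. Over the libraries, glial Kcna2 stood at 940% to 2919% of the neuronal level and glial Kcnk4 at 62.2% to 251%. For both genes the part of glial RNA in the P4-like values was not tested either. Kcnk9 (-4.50 ± 0.90), Kcnk1 (-1.98 ± 0.38), Kcnh1 (-1.79 ± 0.25), Kcnc1 (-1.12 ± 0.20), Kcna6 (-0.83 ± 0.16) and Kcnq3 (-0.55 ± 0.11) were among those lower.

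**Figure D5:**
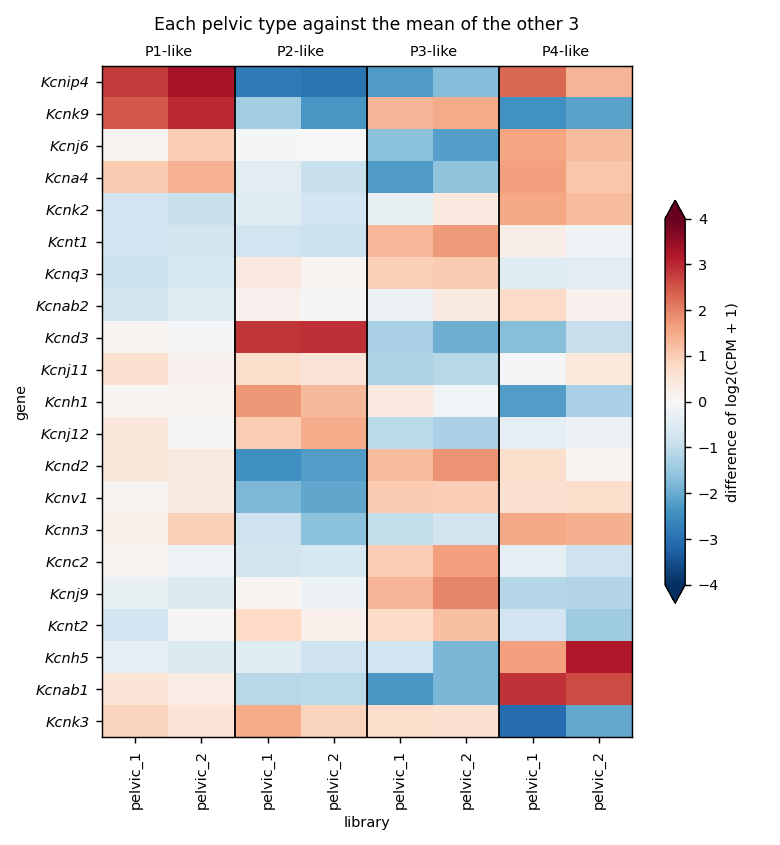
Colour gives the difference of log2(CPM + 1) between a pelvic type and the mean of the other 3, in each of the 2 pelvic libraries (columns), for members among the 4 largest called differences of a type in either direction (rows). The sign is the same in both libraries for each called difference, as for Kcnip4 in P1-like and Kcnd3 in P2-like neurons. The calls were made from these 2 libraries, so this is no separate check.

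A list of 15 genes outside the Kcn symbols, whose products bind or accompany these channels, was followed beside them (Dpp and Amigo partners of voltage-gated channels, sulfonylurea receptors, Lrrc partners of the Kcnma1 channel, contactin and its partner, and the pacemaker channels). Of the 12 tested, 11 were higher in neurons than in glia (42.9% of all genes tested) and 1 lower (30.3%). Dpp6 and Dpp10, which bind A-type channels, were among those higher (4.37 ± 0.33 and 4.40 ± 0.31, log2 ± SE). Dpp10 followed Kcnip4 in being higher in P1-like neurons (2.04 ± 0.14). The partner genes were not left out of the clustering, so their differences between types are no separate check. Abcc8, the sulfonylurea receptor that pairs with Kcnj11, was called lower in P3-like neurons, where both libraries had 0 UMIs of it. Against sympathetic neurons, 4 of the 12 were higher in pelvic neurons (10.3% of all genes tested), among them Cntn2 (1.81 ± 0.23) and Cntnap2 (0.98 ± 0.17), which hold Kcna channels beside the node, and 1 was lower (8.23%), the pacemaker channel Hcn4 (-1.04 ± 0.15).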

How the data were processed

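The authors counted UMIs with Cell Ranger 6.0.1 on mm10 (submitters' processing notes) and deposited raw counts per gene and droplet for 6 libraries. From these counts, droplets with more than 1500 and fewer than 11000 genes and under 15% mitochondrial UMIs were kept (21442 cells). Neurons were selected on sctransform 0.4.2 values, and other cells and neurons were clustered by the Louvain method (python-igraph 0.11.9, shared-neighbour graph) without Kcn genes. Clusters were named from fixed markers, and cholinergic ones also by Chat and Slc18a3 levels set after marker values were seen. At most 49 cell barcodes were shared between 2 libraries. Cells resembling simulated doublets were kept and left out as an alternative. Counts were summed per library and class or type, and tested with edgeR 4.0.16 (quasi-likelihood, TMM, filterByExpr, Benjamini-Hochberg over all genes, call at 0.05), after a test on simulated data. DESeq2 1.42.0 was an alternative. Single libraries were read by a fold of 3 with at least 30 UMIs. Poisson intervals and floors cover counting error only. Depth was 26651 to 108598 median UMIs per neuron and 3472 to 12113 per glial cell.

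The members, gene lists and comparisons were chosen with earlier results of these data known. Genes were named by rule: in each test from the 10 largest called differences in each direction (some in a figure or as a range only), the 5 highest members of each group, the members past a fold and the 2 highest of each family. Kcnk3, Kcnk2, Kcnj3, Kcnmb1, Kcnmb4, Kcnq3, Kcnma1 and Kcnip4 were described in further comparisons after their values were seen. Some genes are not reported here, among them 1 of the neuronal genes read in glia and 1 of the partner genes. Promoter sequences are from RefSeq (GRCm38.p6).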

Additional observations from a re-analysis of the deposited data

Results flagged for a closer look

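Cells outside the neurons, glia and mural cells compared above also held potassium channel RNA, read as the mean CPM over 6 libraries of the summed cells of a class. The values were not compared with what a count of 0 allows. Myelinating Schwann cells, of which the stellate, the coeliac, the lumbar chain and pelvic_2 held 8, 3, 4 and 14, had Kcna1 at 465 CPM, Kcna2 at 158 CPM and Kcna6 at 125 CPM, and the lowest library had 0 CPM of Kcna6. In endothelial cells the values were 46.7 CPM for Kcnj8, 17.0 CPM for the auxiliary subunit Kcne3 and 13.3 CPM for Kcnq1. Fibroblasts had Kcnk2 at 151 CPM, Kcnj8 at 18.9 CPM and Kcne4 at 14.9 CPM. Macrophages had Kcnk13 at 25.0 CPM, Kcnab2 at 17.3 CPM and Kcnk6 at 14.9 CPM, on 117, 78 and 67 UMIs. These classes were not tested against each other.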

How the results depend on the processing

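Over the alternatives, 1304 values of named members kept direction and side of the threshold, 98 kept direction only, 2 moved and 2 turned, the causes of which were not tested. Members that could no longer be tested in an alternative, as many with thinned neurons, are not in these counts. Kcnd3 in mural cells against glia had a log2 fold change of -0.074 (adjusted p = 0.977) in round 1 only. Kcnh5 had a log2 ratio of coeliac to lumbar chain of 0.23 with neurons thinned to 4000 UMIs. Without a filter on low counts, 53 of 94 members tested were higher in neurons than in glia (6822 of 24720 genes). In that setting 26 of 92 were lower in pelvic than in sympathetic neurons (1808 of 23652 genes). With cells thinned to 2000 UMIs, 19 of 32 members tested were higher in neurons than in glia (3331 of 10638 genes). In mural cells 8 of the 32 were higher than in glia (1144 of 10638 genes). In round 1 only, 8 of 51 were higher in mural cells (1396 of 13584 genes). Leaving out the coeliac gave 16 of 73 members higher in pelvic neurons (2308 of 16108 genes) and 26 lower (1726 genes). Leaving out the lumbar chain gave 14 of 65 higher (1673 of 15486 genes) and 16 lower (1329 genes). Leaving out any library gave 32 to 36 members higher in neurons than in glia, beside 4781 to 5632 genes. For mural cells it gave 11 to 15 higher, beside 1664 to 2002 genes. Without a round term 6 of 69 members were lower in pelvic neurons (426 of 15715 genes). With neurons thinned to 4000 UMIs 9 of 41 were lower (706 of 11833 genes). Of 22 members tested in the types, the same thinning left 1 higher and 3 lower in P1-like and 1 and 0 in P2-like neurons. It left 2 and 2 in P3-like and 4 and 1 in P4-like neurons. Of 7105 genes, 275 to 413 were higher and 111 to 330 lower per type. With this thinning 1 of 43 members was lower in the sphenopalatine (202 of 11555 genes) and 1 of 27 in the coeliac (79 of 8810 genes). DESeq2 called 7 of 51 members higher in P1-like neurons (748 of 13264 genes). At a clustering resolution of 1, pelvic_2 held 0 P4-like neurons and the type thus 1 library, so its calls are not counted here. A fold of 2 gave 9 of 69 members higher (643 of 15210 genes) and 4 lower (579 genes) in the sphenopalatine. In the coeliac it gave 1 of 62 higher (390 of 14194 genes) and 9 lower (403 genes). At 20 CPM 10 members were detected in glia and 10 in mural cells, and at 5 CPM 27 in mural cells. No share over all genes is given for these levels, so they are not read as a trait of channel genes. Without either pelvic library the types have no residual degrees of freedom and no test was possible. Pelvic and sympathetic libraries were not paired, and the round was a term of their model. Classes and types of the same library were compared with the library as a block.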
